A study of Mus musculus with 2 samples.

Results

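The oxidative phosphorylation genes were followed across the cell types of mouse periosteum. Members were taken by symbol, as every gene whose symbol starts with Nduf, Sdh followed by a to d, Uqcr, Cox4 to Cox8 or Atp5, together with the protein-coding genes of the mitochondrial genome, without the features named as pseudogenes. This gave 111 of the 31253 features in the files, 98 of them nuclear and 13 mitochondrial. The 98 nuclear features carry 97 symbols, since *Atp5o* has a pair of identifiers, of which one was listed at 0 UMIs. Of the 97 symbols, 12 are assembly factors, which help to build a complex without staying in it. The other 85 comprise 38 named for complex I, 4 for complex II, 8 for complex III, 18 for complex IV and 17 for complex V. Of the nuclear symbols, 94 had at least 100 UMIs (unique molecular identifiers, the molecules counted after removal of amplification copies) over the retained cells of both libraries. The 3 others were *Cox7b2* with 0 UMIs, *Cox8b* with 19 and *Cox8c* with 1.

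Periosteal cells were taken from the femurs and tibias of mice aged 8 weeks and were captured on the BD Rhapsody system in 2 libraries, 1 per genotype. The control library was from Prx1 Cre; Ai9/+ mice, in which the Prx1 (Prrx1) promoter drives Cre and Cre switches on the red reporter Ai9. The other library was from Prx1 Cre; Ai9/+; Piezo1 fl/fl mice, which carry the same driver and reporter together with floxed alleles of *Piezo1*, a mechanically gated ion channel, and is called the floxed library. Cells sorted as positive for the reporter were thawed before capture, and the sources used here do not say how many animals were pooled. With 1 library per genotype no difference between cell types or genotypes could be tested. All intervals are 95% intervals for counting error only, and a gap between libraries cannot be told apart from a gap between genotypes.

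Oxidative phosphorylation makes most of the ATP of a resting cell. Complexes I to IV of the inner mitochondrial membrane pass electrons from NADH and succinate to oxygen. All of these except complex II pump protons, and complex V, the ATP synthase, uses the returning protons to make ATP. Nuclear genes encode most subunits and all of complex II, whereas the mitochondrial genome encodes core subunits of the other 4 complexes, so each of those is built from proteins of both genomes. Some nuclear subunits of complex IV come as paralogs used in particular tissues. Bone-forming cells are known for taking up much glucose and releasing lactate even where oxygen is present.

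After filtering, 4418 control and 5084 Piezo1 fl/fl cells remained, with medians of 4812.5 and 4593 UMIs per cell. Each cell was named by the share of a class's marker genes of which it had a UMI, and 14.8% and 19.2% of cells stayed unnamed. Classes with at least 50 control cells were the skeletal stem/progenitor classes SSPC-1-like (340 cells) and SSPC-2-like (687), tendon-like cells (433), Pi16 fibroblast-like cells (648), Gdf10 fibroblast-like cells (670), endothelial-like cells (163), mural-like cells (285), Prg4-expressing lining-like cells (54) and C1q macrophage-like cells (386). In each of these classes at least 4 markers exceeded the level of the other cells by more than 2-fold. SSPC-1-like cells also had UMIs of a median of 4 of the 8 tendon markers, so these neighbouring classes overlap. The 386 macrophage-like cells were present although the sort was for Prx1 lineage cells. The floxed gene checked the labels only weakly, since *Piezo1* had 132 UMIs in all control cells and 69 in all Piezo1 fl/fl cells, or 5.47 and 2.55 in each 1000000 UMIs of nuclear genes. SSPC-2-like cells had 28 and 3 of these, and SSPC-1-like cells 6 and 2. The libraries shared 50 cell barcodes.

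The mural-like cells, named from markers of the pericytes and smooth muscle cells around vessels, stood above every other class for both genomes. Nuclear members were summed as UMIs per 1000000 UMIs of nuclear genes (CPM), and mitochondrial members as a percentage of all UMIs. Since the reads come from transcript 3′ ends, levels were not divided by gene length, and the levels of different genes are not compared. In control mural-like cells the nuclear members held 20205 CPM (19939 to 20473) and the mitochondrial members 12.6% of UMIs. Among floxed mural-like cells the values were 20529.7 CPM (20296 to 20766) and 12.3%. Mural-like cells thus had the highest level of both in both libraries, among all classes with at least 50 cells.

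Endothelial-like cells came next, with 10621 CPM (10354 to 10892) in the control and 12795 (12476 to 13120.4) in the floxed library. Macrophage-like cells had 9408 and 11084, and lining-like cells 8698 and 10416. Pi16 fibroblast-like cells had 8037 and 8758. The remaining mesenchymal classes lay close together in the control library, with 7363 in SSPC-1-like cells (7244 to 7484), 7195 in Gdf10 fibroblast-like cells (7106 to 7284), 7088 in tendon-like cells (6981 to 7196) and 6944 in SSPC-2-like cells (6869 to 7019). The intervals of neighbours in this order overlapped from SSPC-1-like to SSPC-2-like cells. The control level of mural-like cells exceeded that of SSPC-2-like cells, the lowest stromal class, by 1.54 on the log2 scale (1.52 to 1.57). The lowest floxed class was instead the tendon-like one, with 7552 CPM (7468 to 7637).

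**Figure D1:**
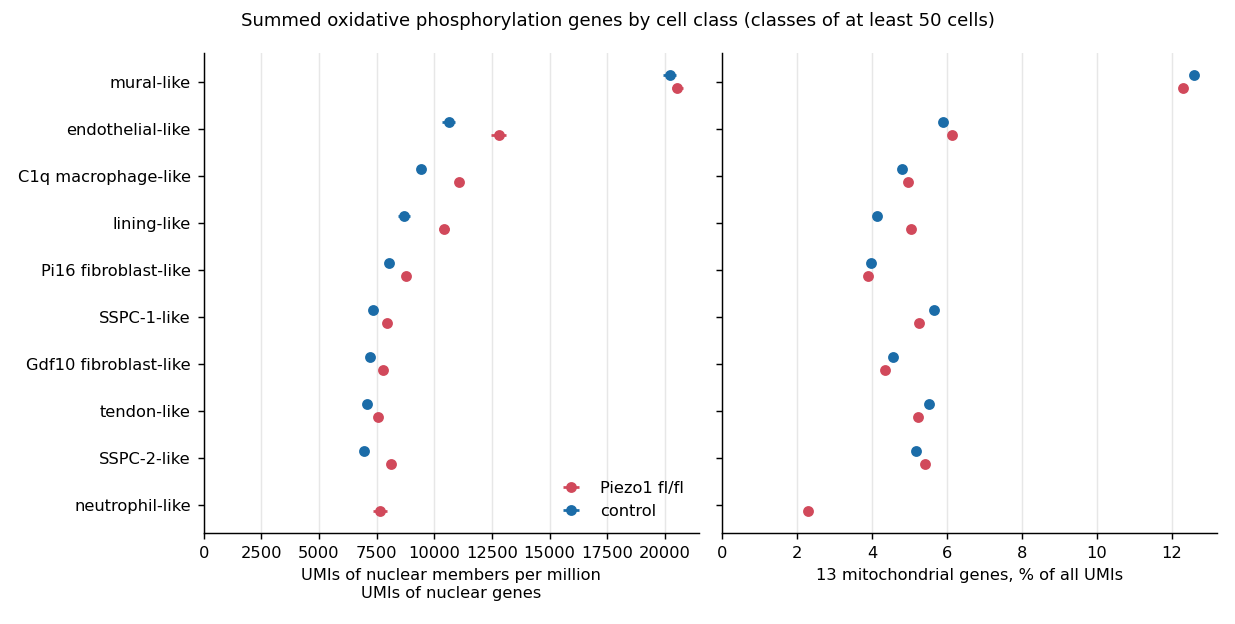
Summed level of the nuclear members (CPM, UMIs per 1000000 nuclear UMIs, left) and of the 13 mitochondrial members (percent of all UMIs, right) in each class with at least 50 cells, for the control and the Piezo1 fl/fl library. Points are class sums and bars are 95% counting intervals, and the mural-like points stand at 20205 and 20529.7 CPM and at 12.6% and 12.3%, above all other classes.

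The order by mitochondrial share was not the same as that by nuclear level. Among control classes of at least 50 cells other than mural-like, the share ran from 3.96% in Pi16 fibroblast-like cells to 5.88% in endothelial-like cells. Of the smaller classes, mature osteoblast-like cells (39) had 6.43% and chondrocyte-like cells (14) 3.39%, both outside this range, and perineurial-like cells (27) 4.59%. Pi16 fibroblast-like cells exceeded Gdf10 fibroblast-like cells in the nuclear level, with log2 ratios of 0.16 (0.14 to 0.18) and 0.17 (0.15 to 0.19) in the 2 libraries, and lay below them in the mitochondrial share, with log2 ratios of -0.20 and -0.15. Of the 77 and 82 members tested, 0 and 2 were at least 1.5-fold higher in Pi16 fibroblast-like cells, where 11.0% and 9.74% of all genes were, and 0 and 1 lower, where 9.01% and 8.30% were. The number of mitochondrial UMIs per nuclear member UMI was 7.14 in control mural-like cells, and 8.14 for SSPC-1-like, 7.86 for SSPC-2-like and 5.13 for Pi16 fibroblast-like cells. By this ratio the mural-like cells lay within the range of the mesenchymal classes, as both sets of members were high in them. In the neutrophil-like cells, found in sufficient number only in the floxed library (73 cells), the mitochondrial share of the summed UMIs was 2.29%, while the median cell had 0.714%.

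The comparison of mural-like cells with the other 7 stromal and vascular classes of the control library asked which members made up this difference. The nuclear members were 2.71-fold higher in mural-like cells, 20205 against 7455 CPM, which is a log2 ratio of 1.44 (1.42 to 1.46). Among floxed cells they were 2.48-fold higher, a log2 ratio of 1.31 (1.29 to 1.33). The mitochondrial share had log2 ratios of 1.36 (1.35 to 1.37) and 1.38 (1.37 to 1.38). Among the 91 nuclear members with at least 100 UMIs over both sides, 80 were at least 1.5-fold higher in control mural-like cells and 1 was lower, where 25.4% of all 9979 genes tested were higher and 28.5% lower. Among floxed cells 79 of 91 were higher and 2 lower, with 23.6% and 28.5% of all genes. The median log2 ratio of the members was 1.31 in the control and 1.21 in the floxed library, and that of all genes tested 0.03 and 0.00. Among the stromal and vascular classes, mural-like cells had the highest level of 78 of the 91 members in the control. The same count over all genes was not made, so this number has no share over all genes beside it.

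The difference was also seen cell by cell. Of 285 control mural-like cells, 237 (83.2%) had a nuclear member level above the 95th percentile of the 2995 other stromal and vascular cells, and 205 (71.9%) a mitochondrial share above it. The floxed library had 87.0% and 79.6% of 362 mural-like cells above these limits. Mural-like cells had fewer UMIs than the mesenchymal classes, with medians of 3731 and 3948 per cell. Genes known to rise during tissue dissociation were also higher in them, with a summed level of 25029 CPM against 14524 in the control and 30061 against 15028 in the floxed library. Of these 11 genes, 4 and 5 were at least 1.5-fold higher, where 25.4% and 23.6% of all genes were. The part of the dissociation genes in the result was not tested. A limit of 10% mitochondrial UMIs per cell in place of 25%, which removes cells by the share described here, lowered the nuclear log2 ratios to 0.88 and 0.81 and the mitochondrial ones to 0.71 and 0.74. The median mitochondrial share of mural-like cells was 12.1% and 11.8%, so this limit left out most of them.

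Every complex took part. The 38 complex I genes, whose products oxidise NADH, had a median log2 ratio of 1.24 in the control and 1.17 in the floxed library, and 35 and 37 of them were at least 1.5-fold higher in mural-like cells. Complex II, which oxidises succinate and is also an enzyme of the TCA cycle, had medians of 1.37 and 1.27 with 4 of 4 genes higher. Complex III, which passes electrons to cytochrome c, had 1.63 and 1.46 with 8 of 8 higher. Complex IV, cytochrome c oxidase, had 1.43 and 1.29 with 11 and 12 of 13 tested genes higher. Complex V had 1.35 and 1.37 with 16 and 15 of 16 higher. The 12 assembly factors stood apart with medians of 0.57 and 0.46, and 6 and 3 of them were at least 1.5-fold higher while 1 and 2 were lower. Over all genes tested, 25.4% and 23.6% were higher in the 2 libraries, and 28.5% were lower in each. The floxed count of higher assembly factors lay near that share.

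**Figure D2:**
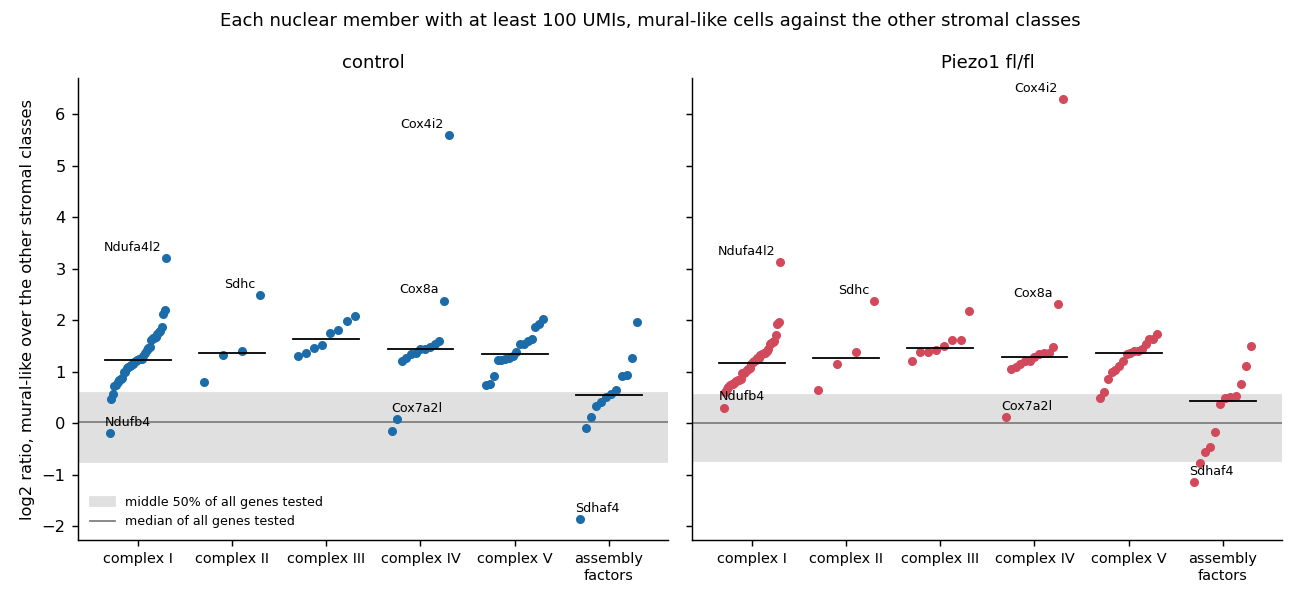
Log2 ratio of each nuclear member between mural-like cells and the other stromal and vascular classes, by complex, in both libraries. Each point is 1 member with at least 100 UMIs, the bars are medians, and the grey band holds the middle 50% of all genes tested. Nearly all members of complexes I to V lie above the band, and Sdhaf4 lies below it at -1.86 (control) and -1.15 (Piezo1 fl/fl).

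Within complex I, *Ndufa12* had 350 UMIs in control mural-like cells and 1190 in the other stromal classes, which is 320.1 against 69.9 CPM and a log2 ratio of 2.20 (2.02 to 2.37), and 1.97 in the floxed library. *Ndufb7* had 135 against 31.3 CPM, with log2 ratios of 2.11 and 1.93, and *Ndufb8* had 114 against 31.4, with 1.87 and 1.60. These encode supernumerary subunits, which surround the catalytic core. *Ndufa2*, the complex I gene with most UMIs, differed less, with 375 against 171 CPM and log2 ratios of 1.13 and 0.99. *Ndufb4* was the exception within the complex. It had 27.4 CPM in mural-like cells and 31.2 in the others, with log2 ratios of -0.19 (-0.77 to 0.34) and 0.30 (-0.16 to 0.73), both of which include no difference. A processed pseudogene identical to *Ndufb4* over 390 bases could take some of its reads, which was not tested.

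Within complex II, *Sdhc*, which encodes a membrane anchor of the complex, had 304 CPM in control mural-like cells and 54.0 in the others, a log2 ratio of 2.49 (2.31 to 2.68), and 2.37 in the floxed library. The other anchor gene, *Sdhd*, had 177 against 102, with log2 ratios of 0.79 (0.57 to 1.01) and 0.64. The intervals of this pair did not overlap. *Sdha*, the flavoprotein with the catalytic site, had log2 ratios of 1.32 and 1.15, and *Sdhb*, the iron-sulfur subunit, 1.41 and 1.39.

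In complexes III and V the leading genes moved together. *Uqcr11*, a small subunit of complex III, had 193 against 45.3 CPM, with log2 ratios of 2.09 (1.87 to 2.31) and 2.17. *Uqcrh*, the hinge protein and the complex III gene with most UMIs, had 705 against 248, with log2 ratios of 1.51 and 1.42. *Atp5b*, the catalytic beta subunit of the ATP synthase, had 639 against 157, with log2 ratios of 2.02 (1.90 to 2.15) and 1.64 (1.53 to 1.75). The c ring of the synthase, which turns as protons pass, is encoded by 3 genes whose mature proteins are the same. *Atp5g3* had 1116 against 295 CPM, with log2 ratios of 1.92 and 1.64, and *Atp5g1* had 164 against 98.3, with 0.74 and 0.48. *Atp5g2* was rare, with 13 UMIs in control mural-like cells. *Atp5g3* gave between 69.7% and 86.4% of the UMIs of the 3 genes in every class of at least 50 cells, *Atp5g1* 12.7% to 28.8% and *Atp5g2* 0.508% to 1.77%.

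The genes that did not follow were mostly linked to assembly. *Sdhaf4*, which binds the flavoprotein while complex II is assembled, had 8 UMIs in control mural-like cells and 452 in the others, or 7.32 against 26.5 CPM, a log2 ratio of -1.86 (-3.08 to -0.87), and -1.15 (-1.91 to -0.47) in the floxed library. *Sdhaf2*, needed for placing the flavin, had 0.11 (-0.54 to 0.69) in the control and -0.77 (-1.52 to -0.11) in the floxed library. *Sdhaf3* had -0.09 and -0.47, with intervals that included 0. *Ndufaf4*, an assembly factor of complex I, differed from these, with 116 against 29.6 CPM and log2 ratios of 1.97 and 1.49. *Cox7a2l*, whose product links complexes III and IV into supercomplexes, had 104 against 98.3 CPM, with log2 ratios of 0.08 (-0.20 to 0.36) and 0.11 (-0.15 to 0.35).

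The mural-like cells were not uniform. Cells with at least 10 UMIs of the smooth muscle gene *Myh11* and none of the pericyte channel genes *Kcnj8* and *Abcc9* had 21760.3 CPM of nuclear member UMIs in the control (206 cells) and 21714 in the floxed library (267 cells), and mitochondrial shares of 13.4% and 13%. Cells with a *Kcnj8* or *Abcc9* UMI and at most 2 *Myh11* UMIs were few, 16 and 5, and had 9371 (8522 to 10283) and 11178 (9710.4 to 12805) CPM with shares of 5.86% and 6.04%. These levels lay between those of Pi16 fibroblast-like and endothelial-like cells. The remaining 63 and 90 mural-like cells lay between, with 15739 and 16401. The subset rich in *Myh11* also had more UMIs, with medians of 4406 and 4426 per cell, against 2719.5 and 3090 in that with channel genes, and the part of depth in this order was not tested.

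Some complex IV subunits come as paralogs, and the share of the less usual paralog differed between classes far more than the sums did. *Cox4i2* (chr2:152754173-152765037, plus strand, GRCm38) encodes an alternative to subunit 4, known from lung and vascular smooth muscle, and *Cox4i1* the common form. *Cox4i2* gave 205 of the 659 UMIs of the pair in control mural-like cells, 31.1% (27.6 to 34.8), and 287 of 942 in the floxed library, 30.5% (27.5 to 33.5). In SSPC-2-like cells the shares were 6.28% (4.71 to 8.18) and 4.05% (2.53 to 6.13), and in endothelial-like cells 3.05% and 6.82%. The SSPC-1-like shares were 0.613% and 0.337%, with 2 and 1 UMIs, and in macrophage-like cells 0.463% and 0.700%. The mural-like share stood above that of every other class in both libraries, and SSPC-2-like cells stood above SSPC-1-like cells without overlap of the intervals.

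As a level, *Cox4i2* had 187 CPM in control mural-like cells and 3.88 in the other stromal classes, a log2 ratio of 5.60 (5.19 to 6.02), and 6.29 (5.84 to 6.77) in the floxed library. *Cox4i1* had 415 against 179.9 with a log2 ratio of 1.21 (1.06 to 1.35), so that *Cox4i2* came on top of a higher *Cox4i1*. Cells with a *Cox4i2* UMI were 130 of 285 (45.6%) in control mural-like cells and 34 of 687 (4.95%) in SSPC-2-like cells, against 0.518% of macrophage-like cells, which should lack the gene. The median depths of these classes were 3731, 6088 and 3797 UMIs. For a second count, cells were thinned to 2500 UMIs and those with fewer were left out, 47 mural-like and 20 SSPC-2-like. Of the remaining 238 and 667 cells of these 2 classes, 29.8% and 2.55% had a *Cox4i2* UMI. Of the SSPC-2-like cells with a *Cox4i2* UMI, 5 of 34 also had UMIs of at least 2 of the 8 mural markers (14.7%), against 12.1% of those without. Among endothelial-like cells it was 3 of 4 with a *Cox4i2* UMI and 25.8% of those without, and 7 of 9 against 26.7% in the floxed library.

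*Ndufa4l2* (chr10:127514967-127517154, plus strand) and its common paralog *Ndufa4* carry complex I names, and the *Ndufa4* protein is now placed in complex IV. *Ndufa4l2* is known as a gene raised by low oxygen and as a marker of pericytes. It gave 209 of the 515 UMIs of the pair in control mural-like cells, 40.6% (36.3 to 45.0), and 44.3% (40.7 to 47.9) in the floxed library. Unlike *Cox4i2* it was also frequent in SSPC-1-like cells, with 27.2% (23.0 to 31.8) and 25.5% (20.2 to 31.4), and in tendon-like cells, with 27.7% and 25.3%. Gdf10 fibroblast-like cells had 12.5% and 16.0%. SSPC-2-like cells had shares of 6.28% and 5.26%, and 0.560% and 0.542% were found in macrophage-like cells. The SSPC-1-like and tendon-like classes thus did not differ beyond their intervals, and both stood above SSPC-2-like cells.

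Cells with an *Ndufa4l2* UMI were 43.5% of control mural-like cells, 20.6% of SSPC-1-like, 15.9% of tendon-like, 2.77% of SSPC-2-like and 0.518% of macrophage-like cells. Thinned to 2500 UMIs, they were 30.3%, 10.2%, 9.84% and 1.35% of the remaining cells of the first 4 classes. Cells with fewer UMIs were left out, 47 mural-like, 27 SSPC-1-like, 47 tendon-like and 20 SSPC-2-like. Of the SSPC-1-like cells with an *Ndufa4l2* UMI, 8 of 70 in the control (11.4%) and 2 of 38 in the floxed library (5.26%) had UMIs of at least 2 mural markers. Of those without, it was 15 of 270 (5.56%) and 11 of 244 (4.51%). The summed level of the 8 mural markers was 109 CPM in SSPC-1-like cells and 35662 in mural-like cells of the control.

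*Cox6b2* (chr7:4751792-4753094, minus strand), a paralog of *Cox6b1* known mainly from testis, showed another pattern. It gave 58 of 416 UMIs of the pair in control SSPC-1-like cells, 13.9% (10.8 to 17.6), and 31 of 288 in the floxed library, 10.8% (7.43 to 14.9). In tendon-like cells the share was 5.42% and 3.77%, and in mural-like cells 1.15% and 2.38%. SSPC-2-like cells had 1.22% and 1.94%, and macrophage-like cells 1.80% and 1.69%. Only the SSPC-1-like and tendon-like shares, together with Gdf10 fibroblast-like cells at 2.90% and 2.16%, exceeded the macrophage-like value in both libraries, and those of Gdf10 fibroblast-like cells by little. Cells with a *Cox6b2* UMI were 11.2% of control SSPC-1-like and 2.59% of macrophage-like cells.

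**Figure D3:**
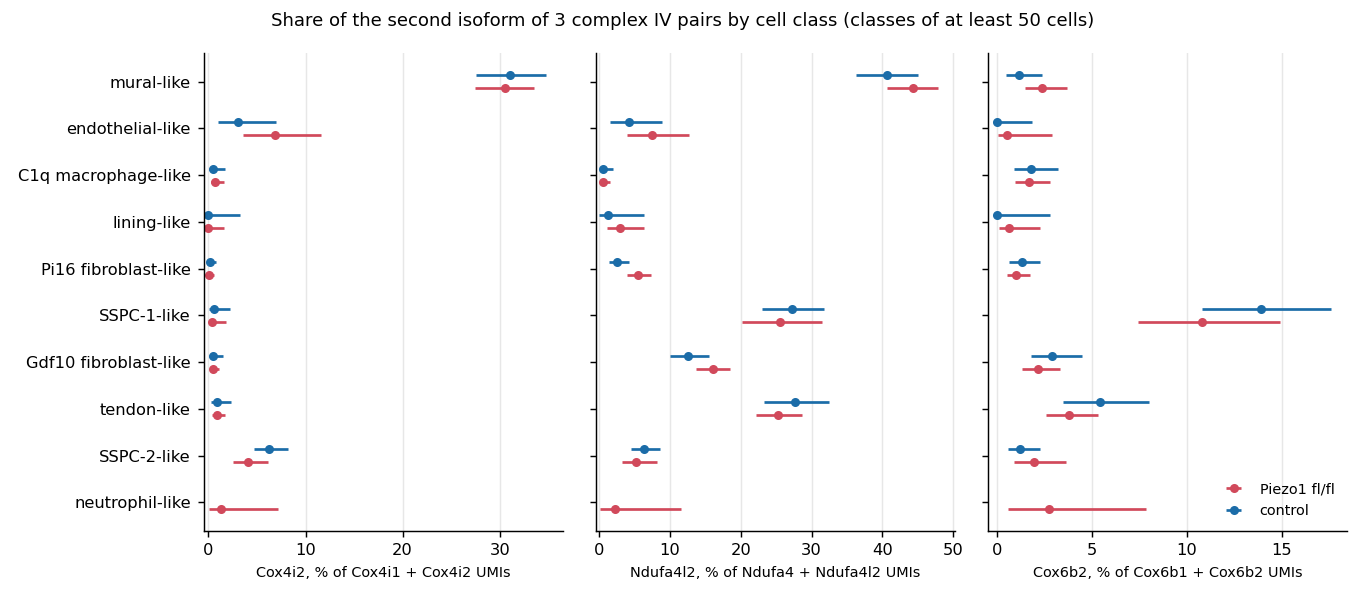
Share of the UMIs of each paralog pair given by Cox4i2, Ndufa4l2 and Cox6b2, in percent, by class and library. Points are shares of summed UMIs and bars are exact binomial 95% intervals. Cox4i2 stands out in mural-like cells (31.1% and 30.5%), Ndufa4l2 in mural-like, SSPC-1-like and tendon-like cells, and Cox6b2 in SSPC-1-like cells (13.9% and 10.8%).

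Among the remaining paralogs, the *Cox7a2l* share of the UMIs of *Cox7a1*, *Cox7a2* and *Cox7a2l* ran from 23.7% and 21.7% in mural-like to 59.2% and 51.4% in macrophage-like cells. *Cox7a1*, the heart and skeletal muscle form of subunit 7a, gave 4.37% and 4.52% of these UMIs in mural-like cells, from 21 and 30 UMIs. It gave 2.49% and 3.37% in macrophage-like cells, with intervals that overlap those of mural-like cells. The other classes of at least 50 cells had lower shares, from 0.444% to 1.74% in the control and from 0% to 1.93% in the floxed library. *Cox6a2* never exceeded 1.11% of the UMIs of *Cox6a1* and *Cox6a2*, and *Cox8b* never 0.671% of those of *Cox8a* and *Cox8b*, in any class of at least 50 cells. The common forms were themselves higher in mural-like cells. *Cox8a* had 798 against 154 CPM, a log2 ratio of 2.38 (2.27 to 2.49) in the control, *Cox6a1* had 1.44, *Cox6b1* 1.47 and *Cox7a2* 1.53, while *Ndufa4* had 0.99. *Cox6c*, the complex IV gene with most UMIs, had 1083 against 357 CPM, with log2 ratios of 1.60 and 1.35.

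Other mitochondrial gene lists showed how far the mural-like difference reached. In the control, 16 of 17 TCA cycle genes were at least 1.5-fold higher in mural-like cells and 0 lower, with a median log2 ratio of 1.52, and citrate synthase, *Cs*, had 1.86 (1.68 to 2.04). Of 15 glycolysis genes tested, 11 were higher and 1 lower with a median of 1.29, among them aldolase A, *Aldoa*, with 1.63, while hexokinase 2, *Hk2*, had -2.80 (-4.25 to -1.67). Mitochondrial ribosomal protein genes had a smaller median of 0.60, with 39 of 72 higher. Mitochondrial carriers and import genes had 0.84 with 7 of 12 higher, among them the ADP/ATP carrier *Slc25a4* with 1.76. Electron transport genes outside the naming rule, such as cytochrome c, *Cycs*, at 2.29, had a median of 0.88 with 4 of 8 higher. Hypoxia target genes went the other way, with a median of -0.59, 0 of 7 higher and 4 lower, and cytosolic ribosomal protein genes had -0.14 with 5 of 89 higher. The medians in the floxed library were 1.36, 0.95, 0.37, 0.90, 0.60, -0.40 and -0.19 in the same order. Over all genes tested in the control, 25.4% were higher and 28.5% lower, with a median of 0.03. Several of the lists hold few tested genes.

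Regulators of mitochondrial biogenesis were measured with few UMIs. Of 7 tested in the control, 1 was higher and 1 lower, with a median of 0.22, and in the floxed library 2 and 1 with 0.51. Over all genes, 25.4% and 23.6% were higher in the 2 libraries, and 28.5% were lower in each. The gene higher in both was *Esrra*, encoding the oestrogen-related receptor alpha, with 1.62 and 1.79. The coactivator genes *Ppargc1a* and *Ppargc1b* were under 100 UMIs and not counted. *Ppargc1a* had 25 UMIs in control mural-like cells and 24 in all other stromal classes, a log2 ratio of 4.02, and 15 against 49 in the floxed library, 1.94. *Ppargc1b* had 50 against 32 and 42 against 15, with 4.61 and 5.13. *Tfam*, the packaging factor of mitochondrial DNA, had 0.47 and *Nrf1*, encoding nuclear respiratory factor 1, 0.40 in the control.

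Nuclear respiratory factor 1 is known to bind a GC-rich palindrome in promoters of many oxidative phosphorylation genes. The nuclear members were examined for it, whether or not they were higher in mural-like cells. The motif GCGCANGCGC was searched on both strands from 250 bases before to 50 after the RefSeq transcription start (GRCm38.p6). Of the 80 nuclear members in the promoter table, 21 held it (26.2%), against 1402 of 27025 genes of the table (5.19%) and 6.49% of those with a feature in the files. It was found in 7 of 33 complex I genes, 2 of 3 of complex II, 1 of 5 of complex III, 1 of 13 of complex IV, 6 of 15 of complex V and 4 of 11 assembly factors. The following stretches, written 5′ to 3′ on the gene's strand with the motif in capitals, show it before the start of *Ndufaf4* (chr4:24897833-24898082, plus strand, 250 bases with no annotated exon), at the sites farthest from and nearer to the start of *Sdha* (chr13:74350319-74350348 and chr13:74350276-74350305, minus strand), and in *Ndufb4* (chr16:37654428-37654457, minus strand).
Ndufaf4: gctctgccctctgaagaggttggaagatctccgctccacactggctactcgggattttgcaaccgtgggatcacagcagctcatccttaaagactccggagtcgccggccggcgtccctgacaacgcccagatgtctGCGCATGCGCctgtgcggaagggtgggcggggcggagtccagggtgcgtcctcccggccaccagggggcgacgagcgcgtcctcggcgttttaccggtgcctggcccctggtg
Sdha, 98 bases before the start: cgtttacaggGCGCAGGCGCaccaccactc
Sdha, 55 bases before the start: ggggcgtgttGCGCAGGCGCagaatcttcc
Ndufb4, 79 bases before the start: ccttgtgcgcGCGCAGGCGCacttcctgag
*Ndufaf4* and *Sdha*, which were higher in mural-like cells, held the motif, and so did *Ndufb4*, with 3 matches, and *Sdhaf4*, which were not. The windows of *Cox8a*, *Ndufa12*, *Ndufb7*, *Ndufb8*, *Uqcr11* and *Atp5b*, all at least 1.5-fold higher, held no match. Promoters were not compared by base composition, and a match describes only these letters in this window.

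The mitochondrial members came almost entirely from 7 of the 13 genes. In control cells *mt-Cytb*, encoding cytochrome b of complex III, had 343880 UMIs (25.2% of the 13 genes), and the complex I genes *mt-Nd2*, *mt-Nd4* and *mt-Nd1* had 286646 (21.0%), 250171 (18.3%) and 205896 (15.1%). The complex IV core gene *mt-Co1* had 120219 (8.82%), and *mt-Nd6* and *mt-Nd5* had 84043 (6.16%) and 70324 (5.16%). The other 6 genes together had 2208 of 1363387 UMIs, 0.162%, and in the floxed library 2434 of 1485939, 0.164%. They were *mt-Nd3* with 1479 and 1815 UMIs, *mt-Atp6* with 305 and 259, *mt-Co2* with 280 and 258, *mt-Co3* with 71 and 69, *mt-Nd4l* with 55 and 25 and *mt-Atp8* with 18 and 8. The core subunits 2 and 3 of cytochrome c oxidase and both mitochondrial subunits of the ATP synthase were thus nearly absent from the counts, in both libraries alike. The *mt-Nd6* gene lies on the strand opposite to the others, and the sources used here do not give the strand setting of the counting.

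The low genes other than *mt-Atp8* have a near-identical nuclear copy over nearly their whole length. A stretch of nuclear chromosome 1 (chr1:24611535-24616197, GRCm38) is a copy of part of the mitochondrial genome, annotated as a row of pseudogenes. The transcripts of *mt-Co2*, *mt-Atp6*, *mt-Co3* and *mt-Nd4l* matched these pseudogenes without a mismatch over 681 of 684, 678 of 681, 783 of 784 and 294 of 297 bases. The *mt-Nd3* transcript had 344 of 345 aligned bases identical, and its single difference from the copy Gm28438 is T3C, counted from the first base of *mt-Nd3*. The first 33 bases of *mt-Nd3* and of its copy are given with the differing base in capitals, followed by bases 724 to 783 of *mt-Co3* and the same bases of its copy Gm28437, which do not differ.
mt-Nd3: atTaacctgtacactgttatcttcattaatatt
Gm28438: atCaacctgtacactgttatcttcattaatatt
mt-Co3: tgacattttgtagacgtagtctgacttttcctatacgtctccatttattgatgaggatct
Gm28437: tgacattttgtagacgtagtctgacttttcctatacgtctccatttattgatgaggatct
Of *mt-Atp8*, the least counted, 43 of 204 bases aligned to an annotated pseudogene. Of the 7 well counted genes, 2 lie partly in the same stretch, *mt-Nd4* with its first 876 of 1378 bases and *mt-Co1* with its last 483 of 1545, of which 482 are identical. The best annotated copies of *mt-Nd2*, *mt-Nd5*, *mt-Nd6* and *mt-Cytb* were 96.7%, 92.4%, 93.6% and 92.9% identical, that of *mt-Nd6* over its whole transcript and that of *mt-Cytb* over 99.8%, and none was found for *mt-Nd1*. Counts of the pseudogenes of this stretch were not analysed here, and whether reads with more than 1 place were left out of the counting was not tested.

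**Figure D4:**
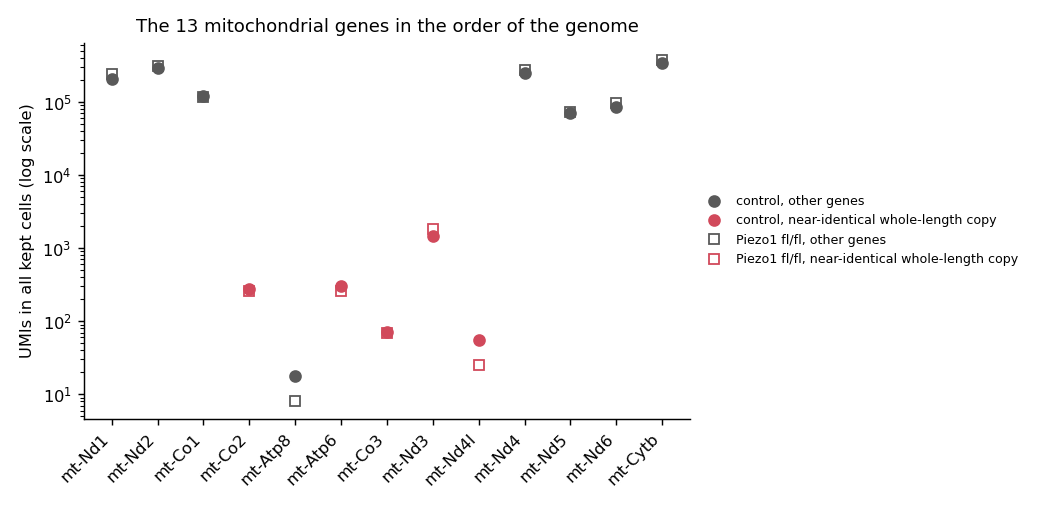
UMIs of the 13 mitochondrial members in the retained cells of each library, on a log axis, in their order on the mitochondrial genome. Red marks the genes with a nuclear copy at least 99% identical over at least 99% of their length, and grey the other genes. The genes marked red lie between 25 and 1815 UMIs, and the 7 others that were well counted lie between 70324 and 375032.

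The 7 well counted mitochondrial genes were all higher in mural-like cells than in the other stromal classes. The log2 ratios in the control and the floxed library were 1.71 and 1.67 for *mt-Nd6*, 1.59 and 1.55 for *mt-Nd5*, 1.42 and 1.51 for *mt-Co1* and 1.38 and 1.33 for *mt-Nd2*. They were 1.32 and 1.40 for *mt-Cytb*, 1.31 and 1.39 for *mt-Nd4* and 1.20 and 1.11 for *mt-Nd1*. Within the mitochondrial UMIs the make-up differed between the classes, with *mt-Cytb* at 28.3% in control SSPC-1-like and 22.3% in Pi16 fibroblast-like cells, and *mt-Nd2* at 20.2% and 24.6%. Among control classes of at least 50 cells, *mt-Nd6* ran from 4.32% in lining-like to 8.99% in macrophage-like cells and *mt-Co1* from 7.84% in tendon-like to 12.3% in macrophage-like cells.

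Endothelial-like and macrophage-like cells differed from the stromal classes by less than mural-like cells did. The nuclear level of endothelial-like cells exceeded that of the 6 other stromal classes without mural-like cells by log2 0.53 (0.49 to 0.57) in the control and 0.65 (0.61 to 0.68) in the floxed library, and the mitochondrial share by 0.27 and 0.39. Of 90 members tested, 37 and 51 were at least 1.5-fold higher, where 32.5% and 32.6% of all genes were, and 3 and 1 lower, where 24.3% and 23.0% were. The median of the members was 0.53 in the control, against 0.23 over all genes. Macrophage-like cells had nuclear log2 ratios of 0.34 and 0.42 with 16 and 19 of 90 members higher, against 27.7% and 25.2% of all genes, and 4 and 2 lower, against 28.9% of all genes in either library. Mural-like cells exceeded endothelial-like cells by 0.93 (0.89 to 0.97) and 0.68 (0.64 to 0.72), with 54 of 68 and 42 of 72 members higher, where 27.4% of all genes were in either library, and 3 lower in each, where 26.1% and 24.4% were. Mural marker UMIs were also found in endothelial-like cells, with 1870 and 3906 CPM against 35662 and 35533 in mural-like cells.

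The study contrasted SSPC-1 and SSPC-2, and the members differed little between them. Of the SSPC-1-like cells, 215 of 340 in the control and 200 of 282 in the floxed library lay near the limits used for naming. In the control the nuclear level of SSPC-2-like cells was 6944 CPM against 7363 in SSPC-1-like cells, a log2 ratio of -0.08 (-0.11 to -0.06), and the mitochondrial share was 5.18% against 5.66%, a log2 ratio of -0.13 (-0.14 to -0.12). Among floxed cells the signs were opposite, with 0.04 (0.00 to 0.07) for the nuclear level and 0.04 (0.03 to 0.06) for the share. Of 79 nuclear members tested in the control, 0 were at least 1.5-fold higher in SSPC-2-like cells and 4 lower, where 8.97% of all 6836 genes were higher and 25.1% lower. Among floxed cells 0 of 69 passed 1.5-fold in either direction, where 30.4% of all 5041 genes did. The median over all genes was below 0 in both, -0.24 and -0.16, and that of the members -0.08 and -0.01, so that 56 of 79 and 55 of 69 members lay above the median gene. Relative to the median gene the nuclear level was therefore higher in SSPC-2-like cells, by 0.15 in the control and 0.20 in the floxed library, which turns the sign of the control value.

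The 4 lower members were *Ndufa4l2*, *Sdha*, *Cox7a2l* and *Ndufb11*. *Ndufa4l2* had 36 UMIs in SSPC-2-like and 113 in SSPC-1-like control cells, 7.59 against 57.6 CPM, a log2 ratio of -2.92 (-3.51 to -2.37), and -2.59 (-3.43 to -1.81) in the floxed library. This was the only one of the 4 at least 2-fold lower. *Sdha* had 64.3 against 109 CPM, -0.76 (-1.01 to -0.50), and *Cox7a2l* had 65.6 against 110, -0.75 (-1.0 to -0.49). *Ndufb11*, a supernumerary subunit of complex I, had 69.3 against 106, -0.61. The last 3 had log2 ratios of -0.24, -0.33 and -0.19 in the floxed library, with intervals that reached 0. Next in the control came *Sdhaf2* with -0.53 (-1.09 to 0.05), and -0.09 in the floxed library.

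Members with the highest ratios in SSPC-2-like cells stayed under 1.5-fold. *Cox6c*, a regulatory subunit of complex IV, had 1902 UMIs against 585, 401 against 298 CPM, a log2 ratio of 0.43 (0.29 to 0.56), and 0.39 (0.23 to 0.55) in the floxed library. *Atp5md*, a small membrane subunit of the ATP synthase, had 0.37 (0.05 to 0.70) and 0.32 (-0.02 to 0.66). The others had intervals that included 0 in the control. *Sdhaf1*, an assembly factor that delivers iron-sulfur clusters, had 0.57 (-0.13 to 1.32), and *Uqcrc1*, a core protein of complex III, 0.52 (-0.01 to 1.08). *Ndufb2* had 0.37 (-0.29 to 1.06) in the control and -1.25 (-2.24 to -0.30) in the floxed library, from 17 and 24 UMIs. Among these members, *Cox6c* was the one whose interval lay above 0 in both libraries.

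By complex, the control medians of SSPC-2-like over SSPC-1-like cells were -0.12 for complex I, -0.32 for complex II, -0.05 for complex III, -0.01 for complex IV and -0.05 for complex V. The lists beside them had medians of -0.11 for the TCA cycle (2 of 16 lower), -0.27 for glycolysis (1 higher and 1 lower of 11), 0.04 for carriers and import, -0.14 for mitochondrial and -0.25 for cytosolic ribosomal proteins. Hypoxia targets had -0.51 with 2 of 4 lower, biogenesis regulators -0.61 with 3 of 5 lower, electron transport genes outside the naming rule 0.23 with 2 of 7 higher, and dissociation genes -0.37. These stand beside the median of -0.24 over all genes, of which 25.1% were lower and 8.97% higher. Among floxed cells hypoxia targets had -0.30 with 1 higher and 2 lower of 5, biogenesis regulators -0.33 with 0 of 3 lower, and electron transport genes outside the naming rule 0.23 with 0 of 5 higher. All genes tested there had a median of -0.16, and 30.4% passed 1.5-fold in either direction. That share was not split by direction, so these floxed counts have no matching share beside them. SSPC-2-like cells with at most 2 UMIs of the bone matrix gene *Ibsp* had 7193 CPM of the nuclear members in the control, and those with at least 10 had 6799 (6686 to 6913). In the control those with 3 to 9 lay lowest, at 6747. The floxed values were 8323 (8104 to 8546) at no more than 2 UMIs, 8122 at 3 to 9 and 8070.4 (7924 to 8219) at 10 or more, with intervals that overlap.

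The comparison of the genotypes rests on 1 library each. The nuclear level was higher in the floxed library in all 9 classes compared. SSPC-1-like cells had a log2 ratio of 0.11 (0.07 to 0.14) and SSPC-2-like cells one of 0.23 (0.20 to 0.26), and it was 0.09 in tendon-like, 0.12 in Pi16 fibroblast-like and 0.11 in Gdf10 fibroblast-like cells. It was 0.27 in endothelial-like, 0.26 in lining-like and 0.24 in macrophage-like cells, and least in mural-like cells, with 0.02 (0.00 to 0.05). The ratio for macrophage-like cells was near that for SSPC-2-like cells. The mitochondrial share lay on both sides of 0. Its log2 ratio was -0.11 for SSPC-1-like, 0.07 for SSPC-2-like and -0.08 for tendon-like cells, and -0.07 for Gdf10 fibroblast-like, -0.04 for mural-like and 0.30 for lining-like cells. It was 0.06 for endothelial-like, 0.04 for macrophage-like and -0.02 for Pi16 fibroblast-like cells. With classes taken from clusters the tendon-like ratio turned to 0.04 and the mural-like one to 0.00, and as means over cells the endothelial-like and Pi16 fibroblast-like ratios turned to -0.02 and 0.01.

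**Figure D5:**
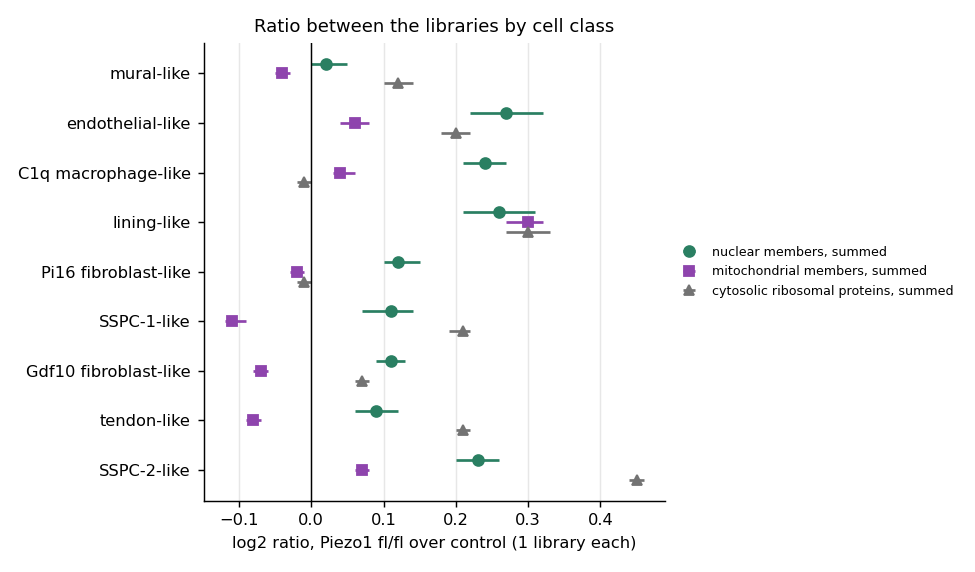
Log2 ratio of the Piezo1 fl/fl over the control library for the summed nuclear level, the mitochondrial share and, in grey, cytosolic ribosomal proteins, by class. Points are ratios of summed UMIs and bars are 95% counting intervals, with 1 library per genotype. The nuclear ratios lie between 0.02 and 0.27, and the mitochondrial ratios lie on both sides of 0.

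Few members passed 1.5-fold between the libraries. In SSPC-1-like cells 1 of 64 was higher and 0 lower, where 5.51% and 9.49% of all genes were, and in SSPC-2-like cells 3 of 77 and 0, where 5.54% and 3.96% were. The median of the members in SSPC-2-like cells was 0.21, against 0.04 over all genes. In mural-like cells it was 0 of 74 higher, where 1.79% of all genes were, in tendon-like 1 of 78 (4.85%), in Pi16 fibroblast-like 0 of 78 (2.75%) and in Gdf10 fibroblast-like 2 of 81 (2.95%). In endothelial-like cells 3 of 43 were higher (4.91%), in lining-like cells 4 of 49 (13.3%) and in macrophage-like cells 4 of 70 (3.97%). In these 7 classes 0 members were lower, where 2.94%, 5.60%, 5.18%, 5.81%, 6.03%, 5.46% and 5.21% of all genes were, in the order given. Cytosolic ribosomal proteins made up 4.02% of nuclear UMIs among floxed and 2.94% among control SSPC-2-like cells, and 4.02% and 3.48% for SSPC-1-like cells. They were also higher in the floxed library in tendon-like, Gdf10 fibroblast-like, endothelial-like, mural-like and lining-like cells, but not in Pi16 fibroblast-like cells, with 3.91% against 3.95%, or macrophage-like cells, with 4.79% against 4.83%. Dissociation genes had a median log2 ratio of 0.63 in SSPC-1-like cells, against 0.10 for SSPC-2-like cells. Their part in the result was not tested.

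In SSPC-1-like cells the member past the limit was *Atp5o*, which encodes the stalk subunit that joins the motor to the catalytic head of the ATP synthase. It had 150 CPM in the Piezo1 fl/fl and 97.8 in the control library, a log2 ratio of 0.62 (0.33 to 0.91), and 0.41 (0.21 to 0.61) in SSPC-2-like cells. *Uqcrfs1*, the Rieske iron-sulfur protein of complex III, had 0.57 (0.08 to 1.05) and 0.17 (-0.16 to 0.50), and *Atp5md* 0.56 (0.16 to 0.97) and 0.51 (0.26 to 0.76). In the other direction *Sdhaf4* had -0.56 (-1.20 to 0.06) and, among SSPC-2-like cells, 0.19, *Ndufa5* -0.45 and 0.12, and *Ndufa6* -0.36 and 0.13.

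In SSPC-2-like cells *Ndufb6*, *Uqcrc2* and *Uqcr11* passed the limit. *Ndufb6*, a supernumerary subunit of complex I, had 24.9 against 15.4 CPM, a log2 ratio of 0.69 (0.17 to 1.21). It was also higher in SSPC-1-like cells, at 0.87 from 73 UMIs in all, in tendon-like cells at 1.45 (0.79 to 2.17) and in Gdf10 fibroblast-like cells at 0.84 (0.34 to 1.36), all from the same pair of libraries. *Uqcrc2*, a core protein of complex III, had 0.64 (0.15 to 1.14) and, in SSPC-1-like cells, 0.94. *Uqcr11* had 0.59 (0.26 to 0.93) and 0.00. The lowest values were -0.25 for the assembly factor gene *Ndufaf8*, -0.23 for *Atp5d* and -0.17 for *Ndufs4*, each with an interval that included 0.

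Copies nearly identical to a member elsewhere in the genome, most of them processed pseudogenes, were found for 12 of the 97 nuclear symbols, at no less than 97% identity over at least 300 bases or 50% of the transcript. Among the genes named here these were *Atp5g1*, *Atp5o*, *Cox5b*, *Ndufa12* and *Ndufb4*, and the counts of these genes are uncertain to the extent that reads were shared.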

How the data were processed

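Periosteal cells of 2 libraries, 1 per genotype, were analysed. The authors deposited, for each library, unnormalized UMI counts per gene and cell. The submitters' processing notes name fastp, UMI-tools, STAR and Seurat 4.0.3, while the genome build and strand setting were not given in the sources used here. Feature identifiers were matched to GENCODE vM21 (31107 of 31253, and 111 of 111 members). The gene range of 1000 to 5000 per cell and the ceiling of 25% for mitochondrial UMIs follow the study's methods. Scrublet (scanpy 1.11.5, expected rate 0.05) called 46 (0.829%) and 67 (0.988%) doublets, which were removed. From 6118 and 7469 barcodes with 28030299 and 32337308 UMIs, 4418 and 5084 cells were left.

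A cell was named by the class with the largest share of markers detected, given at least 3 markers, a share of 37.5% and a lead of 12.5 percentage points. These limits were set after the counts were seen, and 26.0% and 30.9% of named cells lay near them, among them 215 of 340 control and 200 of 282 floxed SSPC-1-like cells. UMIs were summed per class and library. Ratios carry exact conditional intervals, levels exact Poisson and shares exact Clopper-Pearson intervals (95%, scipy 1.17.1), for counting error only. A member counted as higher or lower at 1.5-fold or more, among genes with at least 100 UMIs over both sides, with 0.5 UMI added. No test was made, since each genotype has 1 library, and cells are not replicates. The steps were tested on simulated data.

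Members and lists were chosen with earlier results of these data known. The genes named were the mitochondrial genes, the paralog families, the 5 members with the largest ratio in each direction between SSPC-2-like and SSPC-1-like control cells, the 3 in each direction between genotypes in either class, the 10 with the largest ratio of highest to lowest class, and the gene with most UMIs of each complex. Others, among them *Sdhb*, *Ndufb4* in mural-like cells, *Sdhaf3* and the list genes, were chosen after their values were seen.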

Additional observations from a re-analysis of the deposited data

Results flagged for a closer look

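Features named as pseudogenes were outside the members by the naming rule, and 2 of them held UMIs. *Ndufb1-ps* had 3114 UMIs in control and 4006 in Piezo1 fl/fl cells, which is a signal in data the comparisons did not use. Its level was 319 and 323 CPM in mural-like cells and 116 and 98.5 in SSPC-1-like cells. *Cox5b-ps* had 121 and 200 UMIs, against 1800 and 2287 for *Cox5b*, with which it shares 390 aligned bases at 99.2% identity.

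The difference between SSPC-2-like and SSPC-1-like cells had opposite signs in the libraries. The log2 ratio of the nuclear level was -0.08 in the control and 0.04 in the floxed library, and that of the mitochondrial share -0.13 and 0.04. The nuclear ratios had the same sign when centred on the median gene, at 0.15 and 0.20, and with a lead of 2 markers, at -0.14 and -0.01. The difference between these ratios was not tested, as each rests on 1 library.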

How the results depend on the processing

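Of 14 alternatives, 3 were chosen after seeing the data: a lead of at least 2 of 8 markers, leaving out barcodes found in both libraries, and mural-like cells of at most the library's median UMI count. Of 169 values under an alternative that answer a comparison, 114 stayed within the counting interval (or, for a count of genes, within 1.5 times), 53 moved further with the same sign and 2 reversed. The cause was not tested in any of these. Of 510 values of single genes or further classes, 451 stayed within the limits, 53 moved outside them and 6 reversed. No paired analysis was possible because each genotype has 1 library and no replicate numbers.

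For SSPC-2-like over SSPC-1-like cells the nuclear log2 ratio in the control (-0.08) became 0.15 when centred on the median gene, -0.12 with classes taken from clusters built without the members and -0.14 with the lead of 2 markers. For floxed cells (0.04) it became 0.20 when centred and -0.01 with the lead of 2 markers. The mitochondrial share in the control (-0.13) became -0.07 with 500 to 6000 genes per cell, -0.17 with clusters, -0.09 as a mean over cells and -0.23 with the lead, and in the floxed library (0.04) 0.10 with 500 to 6000 genes, 0.06 as a mean over cells and 0.09 with the lead. The 4 members past 1.5-fold became 10 with a minimum of 20 UMIs, 8 with the lead of 2 markers and 1 at a ratio of 2.

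For mural-like over SSPC-2-like control cells the nuclear log2 ratio (1.54) became 0.98 with a 10% mitochondrial limit, 1.45 as a mean over cells, 1.42 on CPM of all UMIs, 1.21 when centred, 1.39 with mural-like cells of at most the median depth, and 1.59 with clusters, where the lowest class was the tendon-like one. Over the other stromal classes the control value (1.44) became 0.88, 1.34, 1.32, 1.41, 1.29 and 1.46 under the same alternatives. The Piezo1 fl/fl value (1.31) became 0.81 with the 10% limit, 1.33 with clusters, 1.19 on CPM of all UMIs and 1.25 at most the median depth. The mitochondrial share in the control (1.36) became 0.71 with the 10% limit, 1.32 with 500 to 6000 genes, 1.31 with clusters, 1.24 as a mean over cells, 1.38 with the lead and 1.30 at most the median depth. For floxed cells (1.38) it became 0.74, 1.33, 1.36, 1.26 and 1.43 under the first 5 of these, and 1.37 with doublets kept. The *Cox4i2* share in mural-like cells (31.1%) became 42.4% with the 10% limit and 35.1% at most the median depth, and the *Ndufa4l2* share (40.6%) 54.7% and 46.9%.

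Between genotypes, the nuclear log2 ratio in SSPC-1-like cells (0.11) became 0.06 as a mean over cells and 0.15 when centred, and in SSPC-2-like cells (0.23) 0.19 when centred. The mitochondrial ratio in SSPC-1-like cells (-0.11) became -0.08 with the 10% limit, -0.09 with 500 to 6000 genes and -0.26 with the lead, and in SSPC-2-like cells (0.07) 0.08 and 0.09 under the first 2. The mitochondrial ratio changed sign in mural-like cells to 0.00 with clusters and with the lead and to 0.02 at most the median depth, in endothelial-like cells to -0.02 and in Pi16 fibroblast-like cells to 0.01 as means over cells, and in tendon-like cells to 0.04 with clusters. Classes from clusters gave no SSPC-1-like class in the floxed library, so the results that need it have no value there.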

Other observations

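Some of the genes outside the members that were higher in mural-like cells, though with few UMIs, are given here. In the control and floxed libraries, 25.4% and 23.6% of all genes tested were at least 1.5-fold higher in these cells. Of those given here, only *Higd1b* had a control ratio as large as that of *Cox4i2*. *Higd1b*, which belongs to the family of hypoxia-induced respiratory chain factors, had 83 UMIs in control mural-like cells and 6 in the other stromal classes, a log2 ratio of 7.75. *Ldhb*, the lactate dehydrogenase form of oxidative tissues, had 78 against 167 UMIs and a log2 ratio of 2.86 (2.46 to 3.26), and 3.32 (2.92 to 3.71) in the floxed library, while *Ldha* had 0.47 and 0.15. *Idh2*, the mitochondrial NADP-dependent isocitrate dehydrogenase, had 2.37 and 2.68. These genes were chosen after their values were seen.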
